A study of Mus musculus with 24 samples.

Results

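The 9 genes described here encode the surface proteins by which mouse blood stem cells were sorted, together with related receptors of the same cells. Kit, Ly6a (Sca-1), Slamf1 (CD150), Cd34, Cd48 and Flt3 are the genes of the antibody gate, and Tek, Esam and Cd9 are surface genes outside it. They were chosen by name, and 9 of the 10 listed symbols had a row among the 23364 gene symbols counted. The remaining symbol, Slamf2, is an older name of Cd48 and had no row of its own. All 9 had enough counts to be tested.

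RNA was sequenced from 3 populations sorted from C57BL/6 bone marrow of mice aged 8 to 12 weeks. All cells carried Kit, Sca-1 and CD150 and lacked Flt3 and lineage antigens. HSC were negative for CD34 and CD48, MPP1 had CD34 alone, and MPP2 had both proteins. KO libraries (3 per population) came from Mysm1 fl/fl CreERT2 mice after 8 tamoxifen injections of 0.15 mg/g over 16 days, Het libraries (3 per population) from Mysm1 fl/+ CreERT2 mice on the same tamoxifen, and Sham libraries (2 per population) from Mysm1 fl mice that had corn oil alone. The promoter that drives CreERT2 is not given in the sources used here, nor whether Sham mice carried it, so genotype, Cre and tamoxifen cannot be told apart in KO against Sham. Each library pooled male and female mice, and the p-values therefore speak of pools of mice, not of single mice. Counts over the whole Mysm1 gene, of which exon 3 is the deleted part, were 76.7 to 120.7 CPM (counts scaled to the size of each library) in KO, 98.5 to 137.6 CPM in Het and 107.9 to 121.3 CPM in Sham libraries, and such counts are no check of the deletion. The 24 libraries held 18823971 to 53196624 counts.

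Kit, Flt3 and Tek are receptor tyrosine kinases, which dimerise on binding their ligands (stem cell factor, Flt3 ligand and the angiopoietins) and signal through phosphorylated tyrosines. Slamf1 and Cd48 belong to the SLAM family of immunoglobulin-like receptors, Ly6a is a lipid-anchored protein of the Ly6 family, Cd34 is a sialomucin, Esam is an adhesion molecule of cell junctions and Cd9 is a tetraspanin. Long-term stem cells of mouse marrow are known to carry CD150 without CD48 or Flt3, while CD34 appears on the progenitors that follow them.

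The genes lie on 6 chromosomes of the mm9 assembly. Slamf1 (chromosome 1, 173697258 to 173731315) follows Cd48 (173612140 to 173635389) on the same strand after a gap of 61868 bp, and Cd34 (196765015 to 196787486) is farther along that chromosome. Tek (chromosome 4, 94405980 to 94541667) ends 67063 bp from Mysm1 itself, which was the targeted locus. Kit spans chromosome 5, 75970941 to 76052747, and Flt3 lies on the minus strand of the same chromosome, 148142317 to 148212065. Ly6a (chromosome 15, 74825308 to 74828064), Esam (chromosome 9, 37335663 to 37345904) and Cd9 (chromosome 6, 125410284 to 125444809) stand alone among the members.

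RefSeq promoter sequences (GRCm38.p6) were at hand for 7 of the 9 genes. Those of Cd48 and Slamf1 are shown because these neighbours differed in opposite directions between MPP2 and HSC of Het mice. In KO, Slamf1 hardly differed (log2 difference -0.05). That of Kit is shown because Kit had the most counts of the members in every library. Each run holds the 250 bases before the annotated start, 5′ to 3′ on the plus strand, with capitals at matches, on either strand, to GATAA (the core of GATA factor sites), AGGAAG (an ETS-type core) or TGTGGT (a RUNX core), none of which overlapped another.
Cd48, chr1:171681742-171681991: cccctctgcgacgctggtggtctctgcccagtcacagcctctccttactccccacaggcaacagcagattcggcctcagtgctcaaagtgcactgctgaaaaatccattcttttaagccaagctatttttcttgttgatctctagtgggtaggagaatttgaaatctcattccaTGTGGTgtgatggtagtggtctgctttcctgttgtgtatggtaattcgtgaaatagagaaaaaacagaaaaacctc
Slamf1, chr1:171766882-171767131: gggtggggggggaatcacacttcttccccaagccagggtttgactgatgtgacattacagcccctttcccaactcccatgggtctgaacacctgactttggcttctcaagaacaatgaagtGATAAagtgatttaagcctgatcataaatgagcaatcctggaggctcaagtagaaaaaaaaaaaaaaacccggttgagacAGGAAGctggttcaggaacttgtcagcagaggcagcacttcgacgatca
Kit, chr5:75574737-75574986: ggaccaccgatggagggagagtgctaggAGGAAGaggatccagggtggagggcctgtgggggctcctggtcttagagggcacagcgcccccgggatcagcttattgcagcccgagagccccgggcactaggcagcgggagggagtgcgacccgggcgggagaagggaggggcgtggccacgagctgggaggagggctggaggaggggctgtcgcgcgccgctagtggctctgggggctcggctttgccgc
The Cd48 window held 1 RUNX core, the Slamf1 window 1 GATA core and 1 ETS-type core, and the Kit window 1 ETS-type core. Among 32851 promoters of the same length, 22.6% held GATAA, 29.5% AGGAAG and 14.0% TGTGGT, and a match of letters is a description, not a site of binding.

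Per kilobase of exon, the members spanned a wide range of levels in HSC. Kit was the most abundant, at 128.6 ± 11.5 RPKM in KO HSC and 150.2 ± 21.7 RPKM in Het HSC (SD, n = 3 each). Cd9 followed in KO HSC at 59.1 ± 9.48 RPKM, where Het HSC had 33.4 ± 3.84 RPKM. Ly6a (29.7 ± 0.722 RPKM) and Cd34 (28.7 ± 11.9 RPKM) stood close to Cd9 in Het HSC and did not differ from it beyond their spread. Esam (17.3 ± 4.66 RPKM), Tek (13.9 ± 3.87) and Slamf1 (13.3 ± 4.93) formed a lower group in Het HSC whose spreads overlapped. Flt3 (3.31 ± 0.610 RPKM) and Cd48 (1.30 ± 0.535 RPKM) were the lowest of the 9 in Het HSC by the length used here. The HSC gate excludes both as proteins, but it also excludes CD34, whose mRNA was not among the lowest. Length here is the exon union of GENCODE M1, since the lengths deposited with the counts differ from it, for Ly6a 5864 bases against 819. The order of the members depends on that choice. With the deposited lengths, KO HSC had 101.3 RPKM of Cd9 against 72.5 of Kit. Het HSC then had 57.3 RPKM of Cd9 against 14.8 of Cd34 and 4.15 of Ly6a, which lay below Flt3 at 5.59. Ly6a belongs to a multigene family and the handling of reads with several matches is not given in the sources used here, so its level is uncertain.

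**Figure D1:**
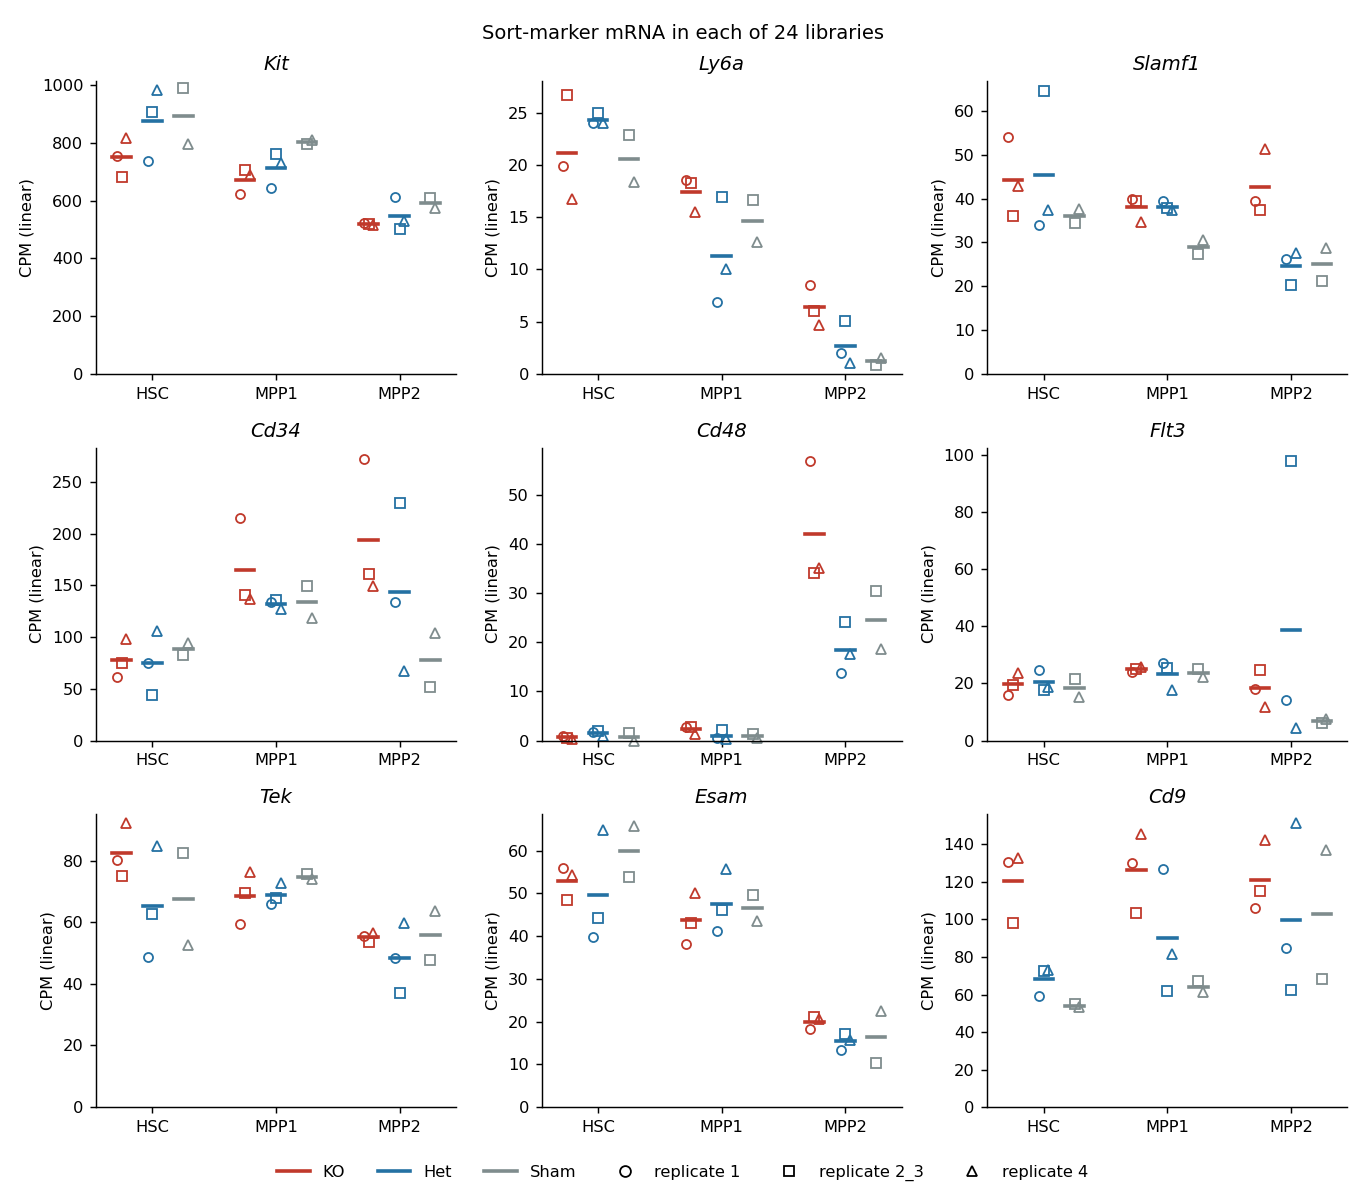
CPM of the 9 genes (linear axes) in HSC, MPP1 and MPP2, 1 point per library (shape for replicate number) and a bar for the mean of each group of 3 KO, 3 Het or 2 Sham libraries. Cd48 stands at 13.8 CPM or more in MPP2 libraries and at 2.81 CPM or less elsewhere, while Ly6a and Esam are lowest in MPP2.

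Between populations, the SLAM receptor Cd48 was higher and Ly6a, Esam and Kit were lower in MPP2 than in HSC, in KO, in Het and in Sham. Among Het libraries 5 of the 9 members passed the test in MPP2 against HSC (1 up, 4 down, edgeR quasi-likelihood test, Benjamini-Hochberg adjusted p under 0.05), where 18% of all genes tested passed. The members' median log2 change was -0.11 in KO, -0.44 in Het and -0.53 in Sham, with medians over all genes tested of -0.17 in KO, -0.01 in Het and -0.29 in Sham. Among KO libraries 4 of 9 passed, against 6.04% of all genes, and among Sham libraries 4 of 9, against 21.3%. In MPP2 against MPP1, 2 of 9 passed in KO (0.969% of all genes), 3 in Het (7.49%) and 3 in Sham (14.9%). Over the 3 population comparisons together, 6 of 27 tests passed in KO (2.34% of all genes), 8 in Het (8.49%) and 7 in Sham (12%). Kit, Ly6a, Slamf1 and Flt3 proteins were gated alike in the 3 populations, and Tek, Esam and Cd9 were not gated, whereas Cd34 and Cd48 proteins set the populations apart. The 1 member that passed upward in each comparison with MPP2 was Cd48. Every count above includes it, although its pass was set by the sort and is no result of these tests. In bulk RNA, fewer cells of a type and less RNA per cell cannot be told apart.

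Cd48, a ligand and adhesion partner of other SLAM receptors, served to check the labels. In HSC it had 1.00, 0.568 and 0.310 CPM in KO libraries, 1.80, 2.02 and 0.827 CPM in Het and 1.61 and 0 CPM in Sham. In MPP1 it had 2.74, 2.81 and 1.30 CPM in KO, 0.535, 2.16 and 0.346 CPM in Het and 1.31 and 0.590 CPM in Sham. In MPP2 it reached 56.9, 34.0 and 35.2 CPM in KO, 13.8, 24.1 and 17.55 CPM in Het and 30.55 and 18.65 CPM in Sham. Every MPP2 library was above every HSC and MPP1 library, as the gate on CD48 protein asks, and this is a check of the sort, not a result. The fitted log2 difference of MPP2 over HSC was 6.07 ± 0.974 in KO (approximate SE, adjusted p = 0.00201), 3.58 ± 0.863 in Het (adjusted p = 0.00721) and 4.93 ± 1.13 in Sham (adjusted p = 0.00433). The Sham value depends on the HSC library with 0 counts and is no bound: it was 3.94 without that library and 12.65 with that library as the only HSC one. Against MPP1, Cd48 rose by 4.19 in KO (adjusted p = 0.0314), a call lost without any of the 6 libraries compared (adjusted p of 0.0514 to 0.229). The HSC side of the ratios to HSC rested on 0 to 62 counts, and the library with 0 counts could hold up to 0.11 CPM (3 counts, counting error only).

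Cd34 mRNA followed the gate on its protein less closely. Its levels in HSC were 61.6, 74.8 and 98.5 CPM in KO, 75.1, 44.1 and 106.3 CPM in Het and 82.85 and 94.4 CPM in Sham. In MPP1 they were 215.4, 140.7 and 137.2 CPM in KO, 134.3, 135.4 and 127.5 CPM in Het and 149.8 and 118.5 CPM in Sham. MPP1 and HSC libraries did not overlap in any of the 3 genotype groups, but no change passed the test. The log2 difference of MPP1 over HSC was 1.07 ± 0.411 in KO (adjusted p = 1), 0.82 ± 0.409 in Het (adjusted p = 0.534) and 0.60 ± 0.5 in Sham (adjusted p = 1). In MPP2, also sorted as CD34-positive, levels were 271.8, 161.2 and 149.0 CPM in KO, 133.6, 229.5 and 67.6 CPM in Het and 51.5 and 103.8 CPM in Sham. Het and Sham MPP2 therefore overlapped with HSC of the same group, with a log2 difference of MPP2 over HSC of 0.93 ± 0.410 in Het (adjusted p = 0.145) and -0.19 ± 0.499 in Sham (adjusted p = 0.835). The Het value was 0.42 (adjusted p = 0.572) without MPP2 Het library 2_3, and it passed at 1.27 (adjusted p = 0.0353) without MPP2 Het library 4. In KO this difference was 1.31 ± 0.413 (adjusted p = 0.0783), and it passed with DESeq2 (adjusted p = 0.0136), in a fit of the KO libraries alone (adjusted p = 0.0207) and without MPP2 Het library 2_3 (adjusted p = 0.0445) or 4 (adjusted p = 0.0377).

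Ly6a, which encodes the Sca-1 protein required of every sorted cell, showed the widest step among the genes gated alike. In KO it had 19.9, 26.7 and 16.75 CPM in HSC, 18.6, 18.3 and 15.5 CPM in MPP1 and 8.48, 6.04 and 4.66 CPM in MPP2. In Het libraries it had 24.01, 25.0 and 23.97 CPM in HSC, 6.87, 16.95 and 10.1 CPM in MPP1 and 2.01, 5.04 and 1.06 CPM in MPP2. In Sham it had 22.8 and 18.4 CPM in HSC, 16.65 and 12.6 CPM in MPP1 and 0.825 and 1.57 CPM in MPP2. MPP2 libraries were below all HSC and MPP1 libraries of their own group. The log2 fall in MPP2 against HSC was -1.72 ± 0.393 in KO (adjusted p = 0.00926), -3.18 ± 0.420 in Het (adjusted p = 5.85e-06) and -4.11 ± 0.544 in Sham (adjusted p = 6.36e-06). Ly6a also fell in MPP2 against MPP1 in Het, by 2.08 on the log2 scale (adjusted p = 0.00162), where in Sham it fell by 3.62 (adjusted p = 7e-05). In KO that difference was -1.45 ± 0.391 (adjusted p = 0.0728). With libraries of the same number taken as a block within KO it was -1.47 and passed (adjusted p = 0.00528). It also passed with DESeq2 (adjusted p = 0.0181), in a fit of the KO libraries alone (adjusted p = 0.00847) and in the fits without MPP2 Het library 2_3 (adjusted p = 0.0153) or 4 (adjusted p = 0.0265) or MPP1 Het library 1 (adjusted p = 0.0433) or 2_3 (adjusted p = 0.0494). In KO the fall against HSC lost its call without HSC KO library 2_3 (adjusted p = 0.0520) or MPP2 KO library 4 (adjusted p = 0.0665).

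Esam, an adhesion molecule of endothelium and platelets that also marks stem cells, fell in parallel without being part of the gate. It had 18.2, 21.1 and 20.7 CPM in KO MPP2 against 55.9, 48.5 and 54.3 CPM in KO HSC. Het libraries had 13.3, 17.0 and 15.8 CPM in MPP2 against 39.9, 44.2 and 64.9 CPM in HSC. Sham libraries had 10.3 and 22.5 CPM in MPP2 against 53.9 and 65.8 CPM in HSC. No MPP2 library reached the lowest HSC library. The log2 difference was -1.41 ± 0.220 in KO (adjusted p = 0.000290), -1.69 ± 0.223 in Het (adjusted p = 3e-06) and -1.87 ± 0.274 in Sham (adjusted p = 1.28e-05). Against MPP1, Esam fell by 1.13 in KO (adjusted p = 0.00701), 1.63 in Het (adjusted p = 2.13e-05) and 1.51 in Sham (adjusted p = 0.000382), on the log2 scale. In KO the last call was lost without MPP1 KO library 4 (adjusted p = 0.0763) or MPP2 KO library 1 (adjusted p = 0.0777). The summed level of 14 endothelial markers, none of them a member, was also lower in MPP2, at 167.3 to 173.5 CPM against 251.0 to 286.9 CPM in HSC among KO libraries, 154.4 to 162.5 against 268.4 to 305.1 among Het, and 124.5 to 162.8 against 290.1 to 316.1 among Sham. Of the 14, 3 fell in KO, 4 in Het and 4 in Sham, and the rest did not pass. Of all genes, 2.65% fell in KO, 8.37% in Het and 7.69% in Sham. All 14 were detected in each group, and the part of such transcripts in the Esam difference was not tested.

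Kit, the stem cell factor receptor, fell by less, and the size of its fall depended on the fit. It had 522.8, 519.9 and 517.0 CPM in KO MPP2 against 753.1, 680.8 and 815.3 CPM in KO HSC. In Het, MPP2 had 612.8, 503.4 and 528.4 CPM and HSC 736.6, 907.8 and 983.6 CPM. In Sham, MPP2 had 608.3 and 575.7 CPM and HSC 989.3 and 797.3 CPM. No MPP2 library overlapped with HSC of its group. The log2 difference was -0.53 ± 0.135 in KO (adjusted p = 0.0169), -0.68 ± 0.135 in Het (adjusted p = 0.000521) and -0.59 ± 0.166 in Sham (adjusted p = 0.00876). Over the alternatives it ran from -0.87 to -0.46 in KO, from -1.03 to -0.58 in Het and from -1.24 to -0.39 in Sham. Against MPP1, Kit differed by -0.37 ± 0.135 in KO (adjusted p = 0.232), -0.38 ± 0.135 in Het (adjusted p = 0.0865) and -0.44 ± 0.165 in Sham (adjusted p = 0.0724), and the Het value passed with DESeq2 (adjusted p = 0.0178) and with limma on the authors' normalized values (adjusted p = 0.00576). Against HSC, the KO call was lost without HSC KO library 4 (adjusted p = 0.114), MPP2 KO library 1 (adjusted p = 0.0770) or 4 (adjusted p = 0.0713), or MPP1 Sham library 2_3 (adjusted p = 0.0618), and with no filter on low counts (adjusted p = 0.0510). The Sham call was lost without HSC Sham library 2_3 (adjusted p = 0.278), MPP2 Sham library 2_3 (adjusted p = 0.0533) or 4 (adjusted p = 0.0740).

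Slamf1, the gene of CD150, passed in Het and not in KO or Sham. In Het, MPP2 had 26.2, 20.2 and 27.5 CPM against 34.0, 64.6 and 37.3 CPM in HSC, a log2 difference of -0.88 ± 0.211 (adjusted p = 0.00294). In KO, MPP2 had 39.5, 37.4 and 51.3 CPM against 54.0, 36.0 and 42.9 CPM in HSC, a log2 difference of -0.05 ± 0.208 (adjusted p = 0.938). In Sham, MPP2 had 21.3 and 28.7 CPM against 34.5 and 37.5 CPM in HSC (-0.53 ± 0.257, adjusted p = 0.159). The Het and Sham groups did not overlap between populations and the KO groups did. A single library decided the Het call: without HSC Het library 2_3, at 64.6 CPM, the log2 difference was -0.53 (adjusted p = 0.0778). The difference between the KO and Het steps is tested further on.

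Flt3, the receptor of Flt3 ligand and a marker of progenitors with lymphoid potential, was excluded by the gate as a protein, yet its mRNA was detected in every library. It ran from 15.3 to 24.8 CPM over the HSC libraries and from 17.6 to 27.1 CPM over the MPP1 libraries. In MPP2 it had 18.2, 24.9 and 11.8 CPM in KO, 14.0, 98.0 and 4.50 CPM in Het and 6.30 and 7.53 CPM in Sham. MPP2 Het library 2_3, with 98.0 CPM, stood apart from the other 23 libraries, none of which exceeded 27.1 CPM. The same library had 2189 CPM of myeloperoxidase (Mpo), against 184.4 and 71.3 CPM in the other Het MPP2 libraries, and a summed level of 13 neutrophil markers of 1444 CPM against 178.5 and 147.9 CPM, with all 13 detected. Of all libraries, the next highest sums were 1134 CPM in MPP1 Sham library 2_3 and 571.5 CPM in HSC Het library 2_3. Flt3 had 25.05 and 17.9 CPM there. The part of neutrophil transcripts in the Flt3 level was not tested. With that library, Flt3 differed by 0.92 ± 0.685 on the log2 scale in MPP2 against HSC of Het mice (adjusted p = 0.441) and by 0.73 ± 0.682 against MPP1 (adjusted p = 0.712). Without it the differences were -1.14 (adjusted p = 0.0214) and -1.34 (adjusted p = 0.0169). In Sham the log2 difference was -1.41 ± 0.858 against HSC (adjusted p = 0.280) and -1.77 ± 0.865 against MPP1 (adjusted p = 0.203), and these too passed once that Het library no longer entered the shared spread (adjusted p = 0.00653 and 0.00194). In KO the difference against HSC was -0.11 ± 0.680 (adjusted p = 0.963).

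**Figure D2:**
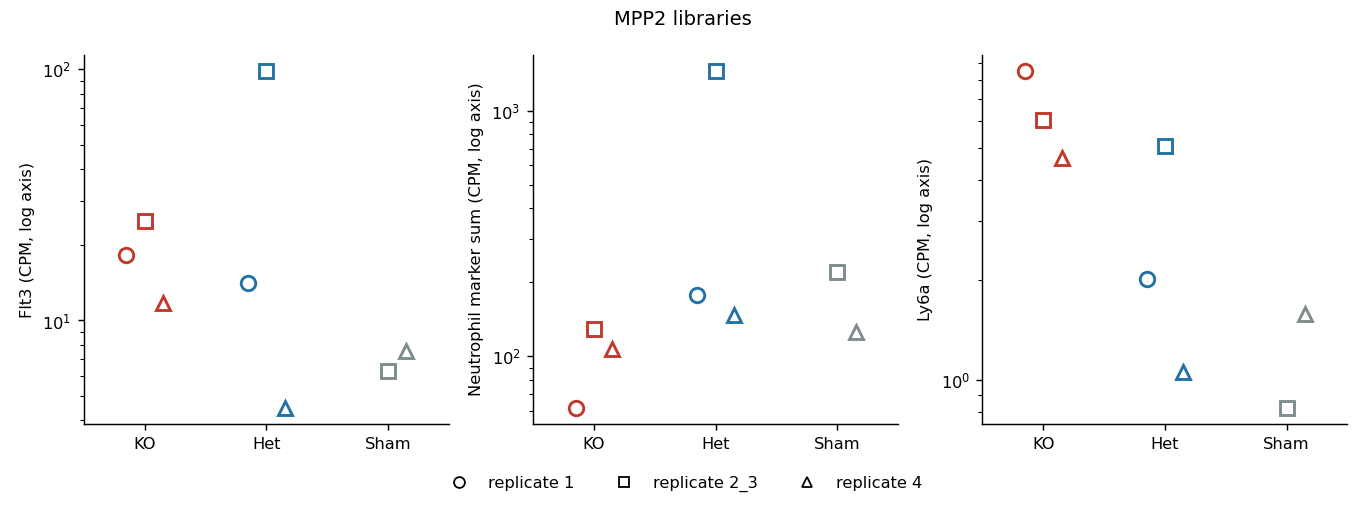
Flt3, the summed level of 13 neutrophil markers and Ly6a in the 8 MPP2 libraries (CPM, log axes), 1 point per library with its shape for the replicate number. Het library 2_3 is highest of the 8 for Flt3 (98.0 CPM) and for the neutrophil sum (1444 CPM), and has the highest Ly6a (5.04 CPM) of the Het libraries.

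Tek, the angiopoietin receptor Tie2, and Cd9 did not pass in MPP2 against HSC in any genotype group. Tek had 55.5, 53.7 and 56.4 CPM in KO MPP2 against 80.25, 75.05 and 92.4 CPM in KO HSC, groups that did not overlap. The log2 difference was -0.58 ± 0.191 (adjusted p = 0.0677), and with same-numbered KO libraries as a block it was -0.57 and passed (adjusted p = 0.0197). It also passed with DESeq2 (adjusted p = 0.0328), in a fit of KO libraries alone (adjusted p = 0.0197) and in the fits without HSC Het library 1 (adjusted p = 0.0441) or 4 (adjusted p = 0.0456). In Het the Tek difference was -0.44 ± 0.191 (adjusted p = 0.122) and in Sham -0.28 ± 0.233 (adjusted p = 0.427). The Het difference passed without HSC Het library 1 (-0.61, adjusted p = 0.0275) or MPP2 Het library 4 (-0.62, adjusted p = 0.0469), and was -0.20 (adjusted p = 0.548) without HSC Het library 4 and -0.28 (adjusted p = 0.421) without MPP2 Het library 2_3. Cd9 differed between MPP2 and HSC by 0.01 ± 0.304 in KO (adjusted p = 1), 0.54 ± 0.306 in Het (adjusted p = 0.269) and 0.92 ± 0.377 in Sham (adjusted p = 0.0975). In Sham, Cd9 had 68.3 and 137.3 CPM in MPP2 against 55.1 and 53.2 CPM in HSC, without overlap. That difference passed with DESeq2 (adjusted p = 0.0410), in a fit of the Sham libraries alone (adjusted p = 0.0129), when library 2_3 of Sham MPP2 was left out (1.34, adjusted p = 0.0335) or library 4 of Het MPP2 (adjusted p = 0.0314). It rests on library 4 of Sham MPP2, at 137.3 CPM, without which it was 0.34 (adjusted p = 0.606).

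**Figure D3:**
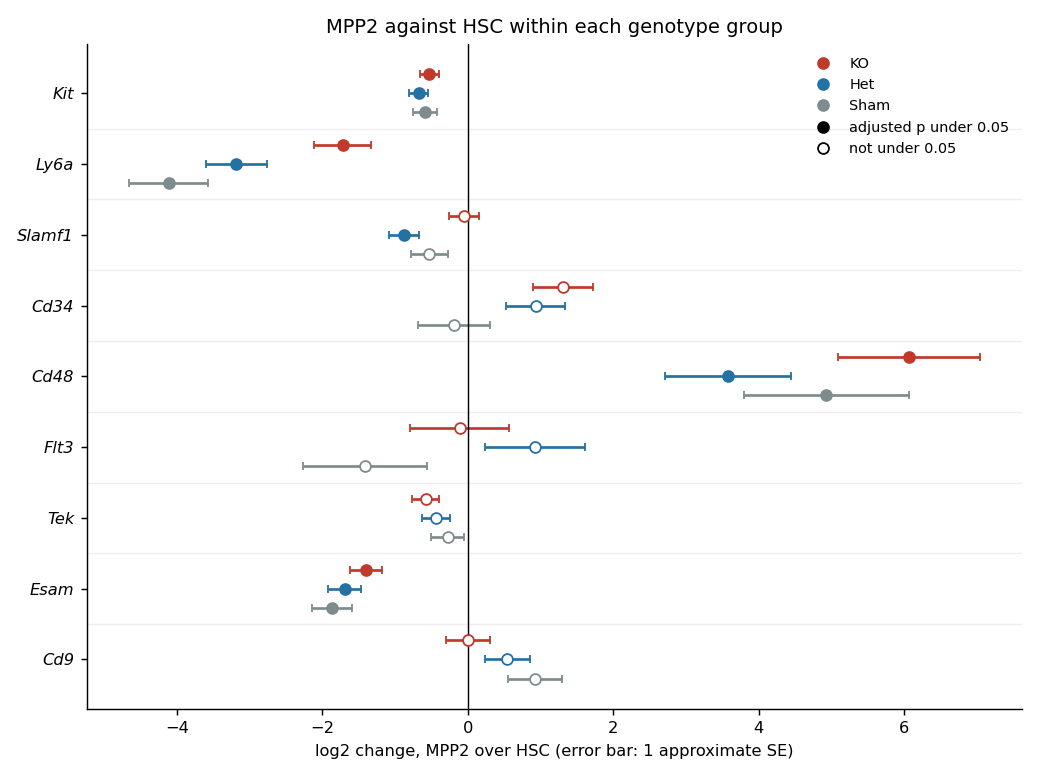
Log2 change of MPP2 over HSC for the 9 genes in KO, Het and Sham (points, bars of 1 approximate SE), filled where the adjusted p was under 0.05. Cd48 lies to the right (3.58 to 6.07) and Ly6a (-1.72 to -4.11) and Esam (-1.41 to -1.87) to the left in all 3 groups, while Slamf1 is filled in Het alone.

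No member passed the test in MPP1 against HSC, in KO, in Het or in Sham (0 of 9 each, edgeR), where 0% of all genes passed in KO, 0.014% in Het and 0.00466% in Sham. At an unadjusted p under 0.05 the counts were 2 of 9 in KO (Cd34 and Cd48, 2.42% of all genes), 2 in Het (Kit and Ly6a, 9.89% of all genes) and 0 in Sham (4.64% of all genes). Ly6a in Het MPP1 lay below all Het HSC libraries, with a log2 difference of -1.11 ± 0.386 (adjusted p = 0.349). Kit in Het differed by -0.30 ± 0.135 (adjusted p = 0.474).

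No member passed the threshold in KO against Het, where both groups had tamoxifen and CreERT2. Over the 3 populations 0 of 27 member tests passed (edgeR), against 0.362% of all genes, and 3 had an unadjusted p under 0.05, against 9.59% of all genes. DESeq2 and limma-trend also called 0 of the 27. The lowest adjusted p-values belonged to Slamf1 in MPP2, Cd9 in HSC and Ly6a in MPP2, all 3 higher in KO. In MPP2 the members' median log2 change was 0.38, with a median of -0.06 over all genes tested. There 3 of 9 members (Slamf1, Cd48 and Esam) had KO libraries that did not overlap with Het, against 14.7% of all genes. In HSC this held for 1 of 9 (Cd9), against 11.6% of all genes, and in MPP1 for 1 of 9 (Cd34), against 21.7%.

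Slamf1 stood at 39.5, 37.4 and 51.3 CPM in KO MPP2, against 26.2, 20.2 and 27.5 CPM in Het MPP2. Every KO library was above every Het library, and the log2 difference was 0.79 ± 0.210 (adjusted p = 0.118). Sham MPP2, at 21.3 and 28.7 CPM, was in the range of Het. Leaving out each library of these groups gave 0.64 to 0.88 (adjusted p of 0.151 to 0.575). The fits without HSC Het library 2_3 share a spread that no longer holds its 64.6 CPM, and there the same difference of 0.79 passed (adjusted p = 0.0329, and 0.0232 without HSC KO library 1 as well). In HSC and MPP1 the log2 differences of Slamf1 were -0.03 ± 0.209 (adjusted p = 0.993) and -0.01 ± 0.209 (adjusted p = 0.995).

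Ly6a in MPP2 had 8.48, 6.04 and 4.66 CPM in KO against 2.01, 5.04 and 1.06 CPM in Het. The groups overlapped through Het library 2_3 alone, and the log2 difference was 1.26 ± 0.398 (adjusted p = 0.326). Without that library, which also carried the high Flt3 and neutrophil transcripts, it was 2.07 and passed (adjusted p = 0.00765). It passed in 1 of the 14 alternatives run. Cd48, the neighbour of Slamf1, had 56.9, 34.0 and 35.2 CPM in KO MPP2 against 13.8, 24.1 and 17.55 CPM in Het MPP2, groups that did not overlap, with a log2 difference of 1.19 ± 0.772 (adjusted p = 0.993). Esam in MPP2 differed by 0.38 ± 0.218 (adjusted p = 0.966).

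Cd9, a tetraspanin of platelets, megakaryocytes and stem cells, was higher in each KO HSC library than in any Het HSC library, short of the threshold. It had 130.9, 98.4 and 132.9 CPM in KO HSC against 59.3, 72.6 and 73.1 CPM in Het HSC, with no overlap. The log2 difference was 0.82 ± 0.307 (adjusted p = 0.226), and 0.71 to 0.95 over 15 alternatives (adjusted p of 0.103 to 0.759). In MPP1 KO libraries had 129.9, 103.2 and 145.5 CPM and Het libraries 126.8, 61.65 and 81.5 CPM (log2 difference 0.49 ± 0.305, adjusted p = 0.618), and the value was 0.82 without Het library 1 and 0.28 without Het library 2_3. In MPP2 the difference was 0.28 ± 0.305 (adjusted p = 0.993), at 0.72 without Het library 4 and 0.04 without Het library 2_3. The summed level of 14 megakaryocyte markers, which do not include Cd9, was 1494 to 2021 CPM in KO HSC against 662.1 to 983.2 CPM in Het HSC and 761.2 to 767.0 CPM in Sham HSC, with all 14 detected in each group. Of the 14, 2 passed in KO against Het HSC and 12 did not, where 0.615% of all genes passed. Selp and Gp5 rose, by 1.13 ± 0.224 (adjusted p = 0.0143) and 1.6 ± 0.319 (adjusted p = 0.0219) on the log2 scale. Both calls were lost when the groups compared were fitted alone (adjusted p = 0.111 and 0.117). The part of those transcripts in the Cd9 level was not tested.

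Kit, Tek, Cd34 and Flt3 gave small or ill-defined differences between KO and Het. For Kit the log2 difference was -0.22 ± 0.135 in HSC, -0.09 ± 0.135 in MPP1 and -0.08 ± 0.135 in MPP2, and in MPP2 the interval of 2 SE ran from -0.35 to 0.19. Tek differed by 0.33 ± 0.190 in HSC (adjusted p = 0.422), where KO libraries had 80.25, 75.05 and 92.4 CPM against 48.8, 62.55 and 84.9 CPM in Het. Cd34 in MPP2 differed by 0.43 ± 0.406 (adjusted p = 0.993), and by 0.10 without Het library 4 to 0.95 without Het library 2_3. Flt3 in MPP2 differed by -1.08 ± 0.686 (adjusted p = 0.993), and by 0.98 without MPP2 Het library 2_3 (adjusted p = 0.461).

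**Figure D4:**
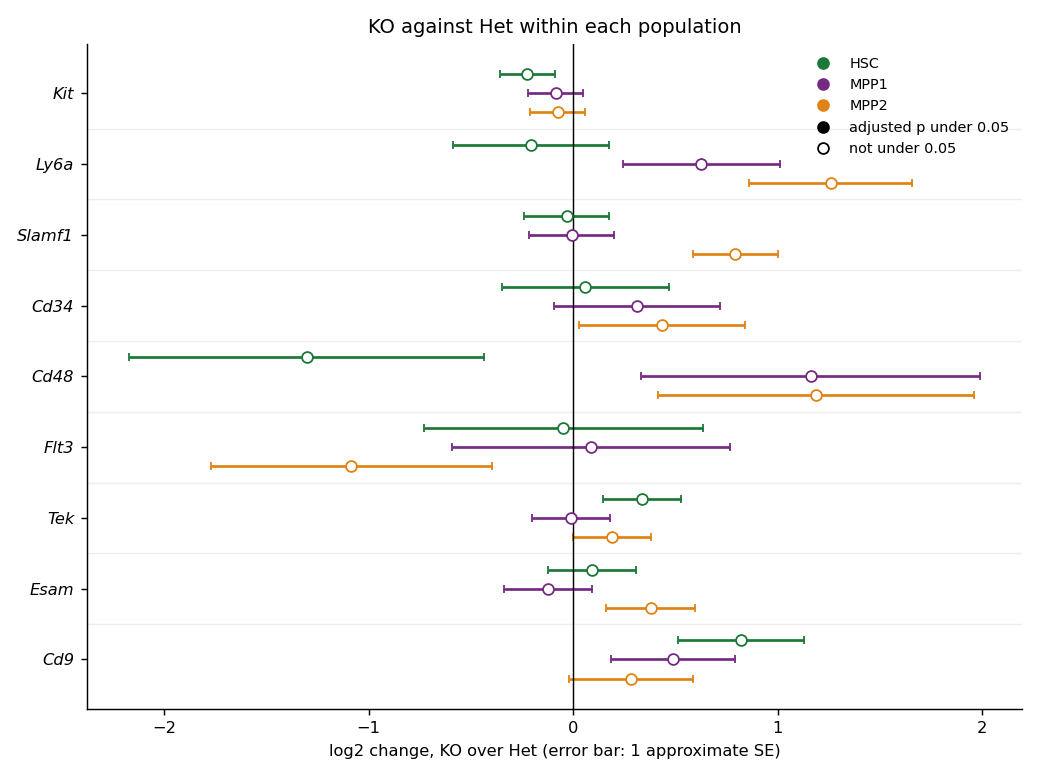
Log2 change of KO over Het for the 9 genes in HSC, MPP1 and MPP2 (points, bars of 1 approximate SE), all open since none had an adjusted p under 0.05. Slamf1 (0.79) and Ly6a (1.26) in MPP2 and Cd9 in HSC (0.82) are farthest above 0 relative to their error, and Cd48 has the widest bars.

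KO against Sham, which shares its KO libraries with the comparison above, called 1 of 27 member tests, against 1.01% of all genes. This was Ly6a in MPP2, where KO had 8.48, 6.04 and 4.66 CPM and Sham 0.825 and 1.57 CPM, a log2 rise of 2.42 ± 0.492 (adjusted p = 0.0128), and where 0.629% of all genes passed. The call was lost without MPP2 KO library 1 (2.17, adjusted p = 0.0767) or MPP2 Sham library 2_3 (2.02, adjusted p = 0.807). Without that Sham library the lone one left was assumed to vary like the other groups. Cd9 in HSC had 130.9, 98.4 and 132.9 CPM in KO against 55.1 and 53.2 CPM in Sham, a log2 difference of 1.16 ± 0.354 (adjusted p = 0.0914). It passed with DESeq2 (1.09, adjusted p = 0.0105), in a fit of KO and Sham HSC alone (1.07, adjusted p = 0.0181) and when library 4 of Het MPP2 was left out (1.16, adjusted p = 0.0360). Cd9 in MPP1 had 129.9, 103.2 and 145.5 CPM in KO against 67.2 and 61.3 CPM in Sham (0.97 ± 0.352, adjusted p = 0.321). Slamf1 in MPP2 differed by 0.77 ± 0.239 (adjusted p = 0.219), and 6 of 9 members did not overlap there, against 23.4% of all genes. Flt3 in MPP2 had 18.2, 24.9 and 11.8 CPM in KO against 6.30 and 7.53 CPM in Sham, a difference of 1.40 ± 0.806 (adjusted p = 1) that passed in a fit of those libraries alone (adjusted p = 0.0409).

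Het against Sham called 0 of 27 member tests and 0% of all genes (edgeR), with 2 of the 27 at an unadjusted p under 0.05, Flt3 and Ly6a in MPP2, against 4.4% of all genes. DESeq2 and limma-trend also called 0 of the 27 member tests, while over all genes limma-trend called 0 and DESeq2 made 79 calls for HSC, 5 for MPP1 and 24 for MPP2. Flt3 in MPP2 differed by 2.49 ± 0.845 (adjusted p = 0.773), and Ly6a by 1.17 ± 0.478 (adjusted p = 0.773). Both values rest on Het library 2_3, without which Flt3 differed by 0.42 and Ly6a by 0.36 (adjusted p = 1 each). Leaving out each library of these groups gave 0.42 to 3.02 for Flt3 and 0.36 to 1.69 for Ly6a, and none passed.

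Whether the KO effect differed between populations was tested directly. Of 27 such tests 0 passed (edgeR; DESeq2 and limma-trend also 0 of the 27), against 0.0109% of all genes, and 4 had an unadjusted p under 0.05, against 4.85% of all genes. For Slamf1 the KO effect in MPP2 exceeded that in HSC by 0.82 ± 0.296 (unadjusted p = 0.00912, adjusted p = 0.573) and that in MPP1 by 0.80 ± 0.296 (unadjusted p = 0.0111, adjusted p = 1). Without HSC Het library 2_3 the excess over HSC was 0.48 (adjusted p = 0.920). For Ly6a the effect in MPP2 exceeded that in HSC by 1.46 ± 0.550 (adjusted p = 0.573), and for Cd48 by 2.49 ± 1.16 (adjusted p = 0.681). Thus the differences of the Ly6a and Slamf1 steps between KO and Het did not pass the threshold.

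The relatives and partners of the members were read from lists of their families. Of 8 other genes of the SLAM family, 0 passed in KO against Het in any population. Cd84 had 206.5 ± 26.2 CPM in KO HSC and 220.8 ± 35.4 CPM in Het HSC, and Ly9 had 12.4 ± 1.65 CPM and 14.7 ± 6.08 CPM (SD, n = 3 each). Among 21 genes of Kit and Flt3 signalling, 1 rose and 3 fell in KO HSC, with 0.615% of all genes called there. Lyn, a Src-family kinase, rose by 0.72 ± 0.168 (adjusted p = 0.0386), at 124.3, 83.4 and 105.2 CPM in KO against 49.1, 64.6 and 76.0 CPM in Het. Pik3cd, the delta catalytic subunit of phosphoinositide 3-kinase, fell by 1.02 on the log2 scale (adjusted p = 0.00840), at 81.8, 86.0 and 79.2 CPM in KO against 120.5, 197.4 and 181.5 CPM in Het. Cish, a feedback inhibitor of cytokine receptors, fell by 1.61 (adjusted p = 0.0143), at 6.40, 5.48 and 7.59 CPM in KO against 17.3, 19.05 and 23.2 CPM in Het. Socs2, another feedback inhibitor, fell as well (-1.68, adjusted p = 0.0248). In MPP1, where 0.0559% of all genes passed, and in MPP2 0 of the 21 passed. Of 18 other stem cell surface genes 1 passed in KO HSC, Bmpr1a, a receptor of bone morphogenetic proteins, which fell by 2.65 (adjusted p = 0.0381). These calls depended on the fit. In HSC, KO against Het called 132 genes here, 10 genes when the groups compared were fitted alone, and 4 without both HSC KO library 1 and HSC Het library 2_3. It called 726 with the replicate block. A block within genotype sets KO and Het at the level of their replicate 1 and does not compare the group means, so its calls are not given. The calls of Lyn, Pik3cd, Cish, Socs2 and Bmpr1a, and of the megakaryocyte genes Selp and Gp5, were all lost in the groups-alone fit (adjusted p of 0.0848 to 0.27), without both libraries (adjusted p of 0.24 to 0.521), and without either one of them. Besides, those of Lyn (HSC Het library 1 or KO library 4), Socs2 (KO library 2_3 or 4), Cish (KO library 2_3) and Bmpr1a (KO library 4) were lost without the libraries named. In edgeR, Lyn also lost its call with no filter on low counts (adjusted p = 0.0543) and with a filter of 1 CPM in 3 libraries (adjusted p = 0.0611). Each of the 7 kept its direction in all fits run.

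In KO MPP2, where 0.415% of all genes passed, relatives of Cd34, Cd9 and Esam rose while those members did not pass. Podxl, a sialomucin like Cd34, had 49.1, 42.7 and 59.85 CPM in KO against 6.76, 6.64 and 11.1 CPM in Het, a log2 rise of 2.62 ± 0.468 (adjusted p = 0.0147, 1 of 6 sialomucins). Cd81, a tetraspanin like Cd9, had 139.5, 113.2 and 125.6 CPM in KO against 82.99, 66.0 and 78.5 CPM in Het (0.73 ± 0.151, adjusted p = 0.0153, 1 of 22 tetraspanins). Tjp1, a scaffold of tight junctions, had 74.9, 69.2 and 74.7 CPM in KO against 39.35, 30.9 and 32.7 CPM in Het (1.09 ± 0.225, adjusted p = 0.0158, 1 of 11 junction genes). KO and Het libraries overlapped for none of these 3. In KO against Sham, which shares the KO libraries, none of the 3 passed, with log2 differences of 0.71 ± 0.5 for Podxl (adjusted p = 1), 0.46 ± 0.170 for Cd81 (adjusted p = 0.442) and 0.28 ± 0.25 for Tjp1 (adjusted p = 1). The Sham libraries stood at 50.96 and 10.8 CPM of Podxl and at 86.5 and 33.5 CPM of Tjp1, and so reached the KO levels in 1 library of each. The KO against Het calls were lost without KO library 1 or Het library 2_3 for each of the 3, and besides without Het library 1 for Podxl and without KO library 4 or Het library 4 for Cd81 and Tjp1 (adjusted p of up to 0.127 for Podxl, 0.17 for Cd81 and 0.0954 for Tjp1). Cd81 also lost its call in edgeR on the groups compared alone (adjusted p = 0.0633). Tjp1 lost its call with limma on the authors' normalized values (adjusted p = 0.0657). Of 15 genes of the Ly6 family and 11 receptor tyrosine kinases and ligands, 0 passed in KO against Het in any population. Ly6e averaged 109.1 ± 20.2 CPM in KO MPP2 and 85.1 ± 17.15 CPM in Het MPP2 (SD, n = 3 each), a log2 difference of 0.36 ± 0.178 (adjusted p = 0.890). Angpt1, a ligand of Tek, averaged 900.6 ± 41.9 CPM in KO MPP2 and 651.4 ± 152.6 CPM in Het MPP2 (0.47 ± 0.179, adjusted p = 0.607). Tie1, the kinase closest to Tek, had 52.75, 54.6 and 52.9 CPM in KO MPP2 against 41.6, 39.15 and 42.8 CPM in Het MPP2 (0.38 ± 0.185, adjusted p = 0.889).

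In MPP2 against HSC the same families gave different counts in the 3 genotype groups. Of 11 junction genes, 1 rose and 3 fell in KO, where 3.39% of all genes rose and 2.65% fell. In Het 0 rose and 5 fell, where 9.59% of all genes rose and 8.37% fell, and in Sham 1 rose and 4 fell, where 13.6% rose and 7.69% fell. Of 22 tetraspanins, 0 passed in KO, 7 fell and 0 rose in Het, and 4 fell and 2 rose in Sham. The values that follow are those of Het. Jam3 fell by 3.86 on the log2 scale (adjusted p = 3e-06), Jam2 by 2.65 (adjusted p = 7.5e-05) and Cd63 by 1.02 (adjusted p = 0.000358). Of 18 other surface genes of stem cells, 5 fell and 0 rose in KO, 9 fell and 3 rose in Het, and 8 fell and 1 rose in Sham. Procr, the protein C receptor, fell by 5.09 (adjusted p = 4.85e-06). In the SLAM family 1 of 8 rose and 1 fell in Het, while 0 rose and 0 fell in KO and 0 rose and 2 fell in Sham. In Het, Cd244, the receptor of CD48, rose by 4.36 ± 0.861 (adjusted p = 0.000921) and Cd84 fell by 0.53 (adjusted p = 0.00981). The rise of Cd244 passed in Het alone. Among the 11 receptor kinases and ligands, 3 fell and 1 rose in Het, 2 fell and 0 rose in KO, and 3 fell and 0 rose in Sham. Tie1 fell by 1.48 ± 0.188 (adjusted p = 1.89e-06), Csf1, the ligand of the receptor Csf1r, by 1.95 (adjusted p = 0.00125) and Angpt1, a ligand of Tek, by 1.03 ± 0.181 (adjusted p = 0.000126). Pdgfrb, a receptor of platelet-derived growth factor, rose by 1.70 ± 0.385 (adjusted p = 0.00176), a rise that passed in Het alone. Whether the rises of Cd244 and Pdgfrb rest on MPP2 Het library 2_3, which stood apart for Flt3, is not reported here.

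Genes with the pattern most like each member over the 24 libraries were found by Pearson correlation of log2 CPM among genes with a mean of at least 5 CPM. The libraries share their populations, so these values describe the populations above all. Esam was most like Scarf1 (r = 0.97) and Tie1 (0.96), and Ly6a most like Gcnt2, C1ra and Camk2d (0.97 each). Kit was most like Rcn3, Gprasp1 and Sft2d2 (0.94 each), Cd48 most like Dock10 (0.90), Tek most like Nbr1 (0.89), and Cd9 most like Tmsb4x (0.93), the actin-binding thymosin beta 4. Slamf1 and Flt3 had weaker best matches, Syne3 and Hk3 (0.83 each), and Cd34 the weakest, Serpinb1a (0.77). Among the members themselves Esam and Ly6a (0.87) and Esam and Kit (0.80) rose and fell together, Cd48 ran against Esam (-0.89), and the neighbours Cd48 and Slamf1 had r = -0.32.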

How the data were processed

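RNA of 24 pooled bone marrow samples was sequenced from rRNA-depleted, strand-marking libraries as paired 50 bp reads. The deposited counts per gene symbol are the authors' own. Per the submitters' processing notes, the tools named are R 3.1.2, edgeR, featureCounts, Bowtie 1.0.0, TopHat2 2.0.9, Trimmomatic 0.33 and FastQC, and the build is mm9. How reads with several matches were counted is not given in the sources used here. A second deposited table holds the authors' normalized signal for 12186 genes and served as an alternative alone. No column of per-sample values was left unused.

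Counts were fitted with edgeR 4.0.16 (R 4.3.3, limma 3.58.1) by the quasi-likelihood test on 9 group means, with TMM scaling and filterByExpr, which kept 21456 of 23364 genes and left 15 residual degrees of freedom (common dispersion 0.466). The Benjamini-Hochberg adjustment ran over the whole table and 0.05 was the threshold. Standard errors were derived from the log2 change and its F statistic and are approximate. CPM uses TMM-scaled library sizes. RPKM divides by the exon union of GENCODE M1. The script was tested on simulated data.

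The members and gene lists were chosen with earlier results of these data known. The text names all members, up to 3 genes most like each (at least 5 CPM on average), and from each family list up to 4 genes that passed KO against Het, or else from its best expressed genes. Cd63, Jam2, Jam3, Procr, Cd244, Csf1 and Pdgfrb in MPP2 against HSC were chosen after their values were seen.

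Libraries of the same number deviated together over the 3 populations of KO (9 of 9 correlations over 0.1, 0.18 to 0.75), so their number pairs them, as read from the data. In Het 7 of 9 and in Sham 2 of 6 were over 0.1. With 2 Sham libraries per group, both pairs between any 2 populations have the same correlation by construction. The 2 of 6 are therefore a single value, 0.18 between MPP1 and MPP2. Between same-numbered KO and Het libraries of 1 population, the number over 0.1 was 1 of 3 pairs in HSC (-0.26 to 0.28). It was 2 of 3 in MPP1 (0.08 to 0.28) and 2 of 3 in MPP2 (0.04 to 0.45). The main fit paired no libraries. Alternatives were RLE scaling, 2 filters, limma-trend, DESeq2 1.42.0, a replicate block, the groups compared alone, the authors' table, and leaving out each library or both HSC libraries with the fewest genes detected (KO 1 and Het 2_3). A block within genotype was added after seeing the data. It served only the comparisons of populations within a genotype group and the KO effect between populations. The floor of a count of 0 covers counting error only, while intervals of 2 SE hold the spread between libraries.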

Additional observations from a re-analysis of the deposited data

How the results depend on the processing

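Of 877 values of single genes under the alternatives, 814 kept their direction and side of the threshold. The number of member tests called in KO against Het was 1 of 27 with both HSC libraries in doubt left out, and 0 to 1 over the fits without a single library. For KO against Sham it was 2 with DESeq2, 3 with only the groups compared and 0 to 1 without a single library. Over the population comparisons it was 3 to 6 in KO, 7 to 10 in Het and 6 to 7 in Sham without a single library. Flt3 turned its direction without MPP2 Het library 2_3: over the fits without a single library it ran from -1.61 to 0.98 in MPP2 KO against Het, from -1.34 to 1.26 in MPP2 against MPP1 and from -1.14 to 1.45 in MPP2 against HSC of Het, and from -1.57 to 1.03 for the KO effect in MPP2 minus HSC, each range having library 2_3 left out at the turned end and library 4 at the other. It also turned with limma-trend, to -0.32 against MPP1 and -0.14 against HSC, and to -0.19 against MPP1 in the authors' table; the cause was not tested. With the replicate block the counts were 0 for KO against Het, 1 for KO against Sham, 0 for Het against Sham, and 9 in Het, 8 in KO and 8 in Sham for the populations. Within genotype the block gave 11 in Het, 8 in KO and 8 in Sham. Slamf1 in MPP2 against MPP1 of Het passed with the block (-0.64, adjusted p = 0.0436) and within genotype (-0.62, adjusted p = 0.0391, edgeR). With 2 Sham libraries per population and pooled mice, Sham comparisons are the least precise, and Cd48 in HSC and MPP1 rests on few counts.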
